A study of Mus musculus with 474 samples.

Results

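The 10 imprinted genes described here were followed in adult skeletal muscle. They were found in the deposited tables by gene symbol, among 20612 genes listed, and are H19, Igf2, Cdkn1c, Peg3, Meg3, Rian, Mirg, Grb10, Mest and Igf2r. The animals were Diversity Outbred mice, a stock bred from 8 inbred founders by random mating, and each of them carries its own mosaic of founder genomes. The study's methods name the muscle as gastrocnemius and put all animals on a high-fat, high-sugar diet, with 45% of its energy from fat per the labels, from 4 weeks of age until harvest at 22 weeks. There is no group on another diet. Each animal gave 1 library, labelled female or male. A number in each label (17, 18, 19, 21 or 23) was read as the generation of outbreeding, which is an assumption for the numbers that the study's text does not name. Together these labels made 10 groups, with 48, 45, 49, 46 and 47 females and 46, 48, 50, 47 and 48 males in the order of the generations. Relatedness between animals, which the study modelled as kinship from genotypes, was not used here, so p-values measure the spread between animals as if they were independent.

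Total counts ran from 35.9 to 165.7 mega-counts (M) per library, with a mean of 81.5 M. Muscle transcripts were abundant, with a median of 21400 counts-per-million (CPM) for Acta1, 13100 for Ckm and 69500 for Myh4. In 5 libraries the sex-linked RNA was not wholly that of the label. Among those labelled female, 2 had almost no Xist (0.329 and 0.173 CPM) and no Ddx3y, and 1 had Xist at 122.3 CPM, as its label says, beside a trace of Ddx3y (0.1335 CPM). Among those labelled male, 1 had neither transcript and 1 had Xist at 13.4 CPM beside Ddx3y at 93.7 CPM. The columns of the female with the trace and of the male with neither transcript stand in each other's place in the order of animal numbers, and their values were taken by column name. All 5 libraries were kept under their labels. Without them 9 of 10 members still differed between the sexes, and the log2 sex difference of H19, for example, was -1.12 in place of -1.11.

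An imprinted gene is transcribed mostly or only from the copy inherited from one parent, under marks laid down in the germline, and such genes lie in clusters that share a control region. Many of them regulate growth before birth and are turned down after weaning. Paternally expressed members of the set are Igf2, a fetal growth factor, Peg3, a zinc finger protein, and Mest, a hydrolase-like membrane protein that is known to rise in expanding fat. Maternally expressed members are Igf2r, the receptor that carries Igf2 to the lysosome, Grb10, an adaptor that dampens insulin and IGF receptor signalling, Cdkn1c, an inhibitor of the cell cycle, and the non-coding RNAs H19, Meg3, Rian and Mirg. The deposited values sum both parental copies, so they hold no measure of imprinting itself.

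On GRCm38, H19 (ENSMUSG00000000031, chr7:142575529-142578143, minus strand) and Igf2 (ENSMUSG00000048583, chr7:142650766-142666816, minus) lie 72.6 kb apart and share an imprinting control region. Cdkn1c (ENSMUSG00000037664, chr7:143458339-143461050, minus) lies 791.5 kb beyond Igf2, in the neighbouring Kcnq1 domain. Meg3 (ENSMUSG00000021268, chr12:109541001-109571726, plus), Rian (ENSMUSG00000097451, chr12:109603808-109661716, plus) and Mirg (ENSMUSG00000097391, chr12:109729764-109749460, plus) follow each other in the Dlk1-Dio3 domain with gaps of 32.1 and 68.0 kb. The remaining members stand alone in their domains: Peg3 (ENSMUSG00000002265, chr7:6703892-6730431, minus), Grb10 (ENSMUSG00000020176, chr11:11930508-12038683, minus), Mest (ENSMUSG00000051855, chr6:30723547-30748465, plus) and Igf2r (ENSMUSG00000023830, chr17:12682406-12769664, minus). Some exons are shared with other annotated genes, and the sources used here do not say whether strand was used in counting. Of the Igf2 exon bases, 62.8% also belong to Gm49394 on the same strand. The antisense gene Gm44732 covers 30.7% of Cdkn1c, and Copg2, on the opposite strand, covers 23.1% of Mest. Copg2 is among the genes listed, while Gm49394 and Gm44732 are not. Values of Igf2, Cdkn1c and Mest are uncertain for this reason, by an amount that was not tested.

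Several members are also hosts of microRNAs, the short RNAs that pair with target transcripts mainly through a seed at bases 2 to 8. RefSeq on GRCm38.p6 places 26 mature miRNAs within Mirg, 6 within Rian, 3 within Meg3 and 2 each within H19, Igf2 and Mest. The libraries were made from polyadenylated RNA and do not measure mature miRNAs, so only the host transcripts have values here. A few of the sequences are shown to say what these transcripts carry, written 5′ to 3′ with the seed in capitals. The pair in H19 lies in an exon, at chr7:142577112-142577133 and chr7:142577078-142577099, and the pairs in Igf2 and Mest lie in introns.
miR-675-5p (H19): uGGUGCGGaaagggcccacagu
miR-675-3p (H19): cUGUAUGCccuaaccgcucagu
miR-483-5p (Igf2): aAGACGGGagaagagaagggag
miR-483-3p (Igf2): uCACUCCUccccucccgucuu
miR-335-5p (Mest): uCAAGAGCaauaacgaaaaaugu
miR-335-3p (Mest): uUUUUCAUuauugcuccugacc
The Dlk1-Dio3 hosts carry the largest number. The following were chosen as 1 from each of Meg3 and Rian, 3 exonic ones from Mirg, and the only 2 of all 41 whose seed is the same (GGUUGCC, both within Mirg).
miR-770-5p (Meg3): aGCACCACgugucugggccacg
miR-370-3p (Rian): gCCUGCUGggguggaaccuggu
miR-134-5p (Mirg): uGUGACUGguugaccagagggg
miR-377-3p (Mirg): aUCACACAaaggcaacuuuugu
miR-410-3p (Mirg): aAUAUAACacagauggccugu
miR-453 (Mirg): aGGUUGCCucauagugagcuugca
miR-496a-5p (Mirg): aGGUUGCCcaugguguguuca

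The members covered a wide range of levels in adult muscle, and no library had a count of 0 for any of them. Per kilobase of annotated exon, H19 was by far the most abundant, with a median of 147 CPM per kb, above 99.04% of the 18823 genes tested. Igf2r followed at 15.0, Grb10 at 5.53, Cdkn1c at 4.51 and Igf2 at 4.01 CPM per kb. Peg3 stood at 1.84, Meg3 at 0.905, Mest at 0.747, Rian at 0.445 and Mirg at 0.0605 CPM per kb, the last above only 14.79% of genes tested. H19 was above Igf2r, Igf2r above Grb10, and Rian above Mirg in every library. Igf2 was above Peg3 in 95.4% of libraries (log2 difference 1.07 ± 0.63, SD), Peg3 above Meg3 in 97.9% (1.12 ± 0.70) and Mest above Rian in 88.0% (0.88 ± 0.79), so these neighbours differed by more than 1 SD over animals. The remaining 3 pairs of neighbours did not: Grb10 was above Cdkn1c in 61.4% of libraries (0.21 ± 0.70), Cdkn1c above Igf2 in 61.0% (0.22 ± 0.61), and Meg3 above Mest in 62.7% (0.13 ± 0.75). With mean transcript length in place of all exon bases, Igf2 came before Cdkn1c, Meg3 before Peg3 and Rian before Mest. Mirg rested on few reads, with a median of 35 counts per library (5 to 157), against 30134.5 for H19.

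The sexes were compared next, with generation as a covariate. In all, 9 of the 10 members differed between males and females (edgeR quasi-likelihood test, Benjamini-Hochberg adjusted p under 0.05), 4 of them higher and 5 lower in males. The count has to be read against the whole table, where 55.0% of genes tested passed the same threshold, 24.4% higher and 30.6% lower in males, and with total counts alone as the scale 30.8% of the passing genes were higher in males against 44.3% with TMM scaling. By size, the members' median absolute log2 difference was 0.26, beside 0.09 over all genes tested and 0.11 over 49 other imprinted genes.

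H19 showed the largest difference of the set and was lower in males. Its level ran from 171 to 1770 CPM in females, with a median of 537.2, and from 87.9 to 912.6 CPM in males, with a median of 255.1. The groups overlapped, but 97.5% of males lay below the female median and 34 males lay below the lowest female. Mean levels were 588.3 ± 248.3 CPM (SD over all females) and 272.03 ± 115 CPM (over all males), a log2 difference of -1.11 ± 0.05 (SE), or 2.17-fold (edgeR, adjusted p = 3.5e-68). In the generations taken singly the medians were 529.4 to 564.4 CPM in females and 247.1 to 276.8 CPM in males, and the log2 difference kept between -1.22 and -1.04. Sex took 49.3% of the variance of the H19 score, the deposited log2-like value of each gene.

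Igf2 from the same locus was also lower in males, though by much less. It ran from 12.3 to 46.7 CPM in females (median 24.7) and from 11.5 to 64.7 CPM in males (median 21.1), so the ranges overlapped almost wholly. The log2 difference was -0.21 ± 0.03 (adjusted p = 8.87e-12), and 76.6% of males lay below the female median. Because H19 differed more than Igf2, the ratio of both, per kilobase, also separated by sex, with a median of 51.3 in females (13.9 to 168) and 27.2 in males (9.25 to 103). The single highest Igf2 value, 64.7 CPM, came from a male of generation 19, and the next highest of all libraries was 46.7 CPM.

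Grb10 and Igf2r, both of which oppose growth factor action, were lower in males as well. Grb10 ran from 39.3 to 79.4 CPM in females (median 58.3) and from 23.9 to 63.3 CPM in males (median 41.3). This was the cleanest separation of the set: 90 males lay below the lowest female and 66 females above the highest male. The log2 difference was -0.47 ± 0.02 (adjusted p = 8.38e-74), and sex took 52.4% of the variance of the score. Igf2r was lower in males by a small margin, with 103 to 213.8 CPM in females (median 145), 99.1 to 182 CPM in males (median 135) and a log2 difference of -0.12 ± 0.02 (adjusted p = 1.5e-12).

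Cdkn1c went the other way. This cell cycle inhibitor ran from 4.48 to 12.8 CPM in females (median 7.68) and from 5.67 to 36.8 CPM in males (median 11.5). Among the males, 80 lay above the highest female, and 20 females lay below the lowest male. The log2 difference was 0.66 ± 0.03 (adjusted p = 3.27e-58), and it stayed between 0.60 and 0.78 in the single generations. Cdkn1c and H19 thus differed in opposite directions although their genes lie 880.2 kb apart on the same chromosome.

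The non-coding RNAs of the Dlk1-Dio3 domain differed little between the sexes. Meg3 had medians of 15.3 CPM in females (7.65 to 34.3) and 17.1 CPM in males (7.06 to 29.7), a log2 difference of 0.12 ± 0.03 (adjusted p = 0.00082). Rian had medians of 7.74 CPM (2.62 to 30.2) and 8.30 CPM (2.93 to 20.1), and its log2 difference of 0.06 ± 0.04 did not pass (adjusted p = 0.195). Mirg had medians of 0.40 CPM (0.0987 to 1.13) and 0.48 CPM (0.126 to 1.12), with a log2 difference of 0.22 ± 0.05 (adjusted p = 7.73e-05). In all these genes the ranges of both sexes largely overlapped. The highest Rian value, 30.2 CPM, came from 1 female, and the next highest library had 21.1 CPM. Sex took 3.5%, 0.736% and 3.87% of the variance of the score for Meg3, Rian and Mirg. The differences of Meg3 (-0.07 to 0.20) and Rian (-0.19 to 0.16) were not of the same sign in every library block.

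Peg3 was lower in males and Mest higher, and 5 of 6 adipocyte markers, given below, were lower in males. Peg3 ran from 10.8 to 117 CPM in females (median 28.8) and from 6.26 to 73.2 CPM in males (median 21.9), a log2 difference of -0.46 ± 0.05 (adjusted p = 3.15e-17). Mest ran from 0.91 to 40.7 CPM in females (median 2.54) and from 1.05 to 15.9 CPM in males (median 3.47), a log2 difference of 0.30 ± 0.07 (adjusted p = 6.65e-05). The high female value belonged to 1 animal of generation 19. Without that library, an alternative chosen after the values were seen, the Mest difference was 0.37. In library block 4 alone it was -0.02.

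**Figure D1:**
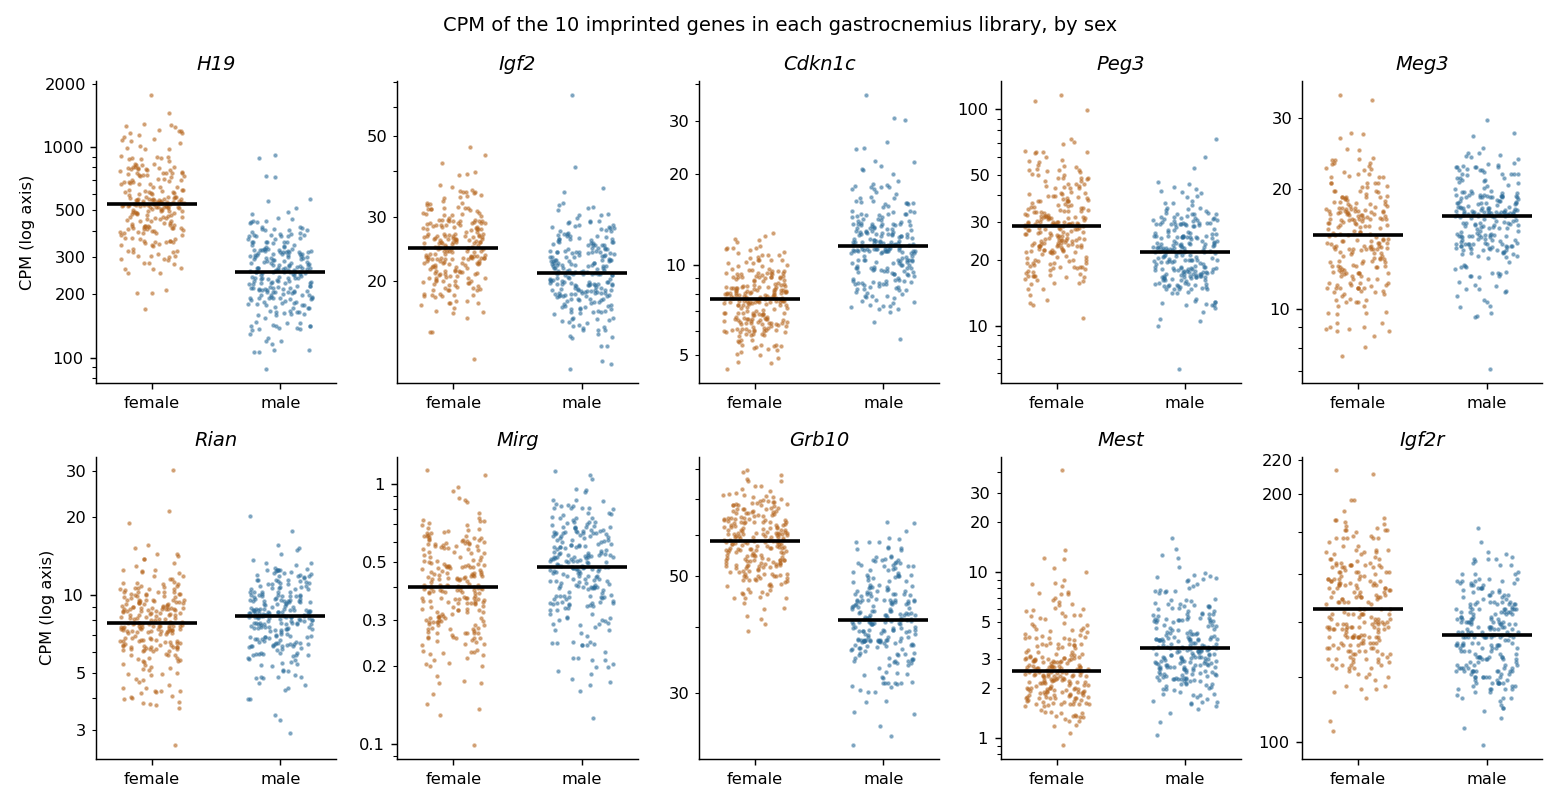
Each panel plots CPM on a log axis for 1 imprinted gene, with 1 point per library, females left and males right, and a black bar at the median. H19 and Grb10 sit lower and Cdkn1c higher in males with limited overlap, while the clouds of Meg3, Rian and Mirg largely coincide.

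Values of cell type markers stood beside these differences as follows. In bulk tissue, fewer cells of a type and less RNA per cell cannot be told apart. Of 6 adipocyte markers, 5 were lower in males and 1, Lep, was higher, and their summed level was 327.9 to 1510 CPM in females (median 672.8) and 251.7 to 1010 CPM in males (median 502.4). Plin4, a lipid droplet coat protein that muscle fibres also make, was a median of 86.0% of that sum. The other 5 adipocyte markers summed to 12.5 to 580.1 CPM in females (median 93.4) and 7.59 to 259.1 CPM in males (median 64.3). All 6 slow fibre markers were lower in males, with summed levels of 399.7 to 7500 CPM in females (median 2540) and 526.2 to 5860 CPM in males (median 1690). Of 6 satellite cell markers 5 were higher and 1 lower in males, and of 6 tendon markers 1 was higher and 4 were lower. All 6 endothelial markers (median log2 difference 0.12) and all 5 of pericytes and smooth muscle (0.10) were higher in males, as were 4 of 6 fast fibre markers, with 1 lower (0.07). Of 6 markers of immature or denervated fibres 4 were lower and 1 higher (-0.31), of 7 fibro-adipogenic progenitor markers 4 were lower and 2 higher (-0.12), and of 6 Schwann cell markers 3 were lower (-0.12). Of 4 erythroid markers 2 were higher (0.21), and none of 6 macrophage markers passed (-0.04). Of 6 general skeletal muscle markers 4 were higher and 1 lower in males (0.09). None of the tested markers was at 0 in every library. With scores of 8 marker lists as covariates (adipocyte, fibro-adipogenic progenitor, satellite cell, endothelial, macrophage, Schwann, slow fibre and tendon), the log2 sex difference was -1.12 for H19, -0.25 for Igf2, 0.62 for Cdkn1c, -0.39 for Grb10, -0.14 for Igf2r, 0.11 for Meg3 and 0.17 for Mirg, and it was -0.31 for Peg3 and 0.51 for Mest. With them 9 members passed again, the Peg3 difference was smaller and the Mest difference larger by more than 1.5 times.

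**Figure D2:**
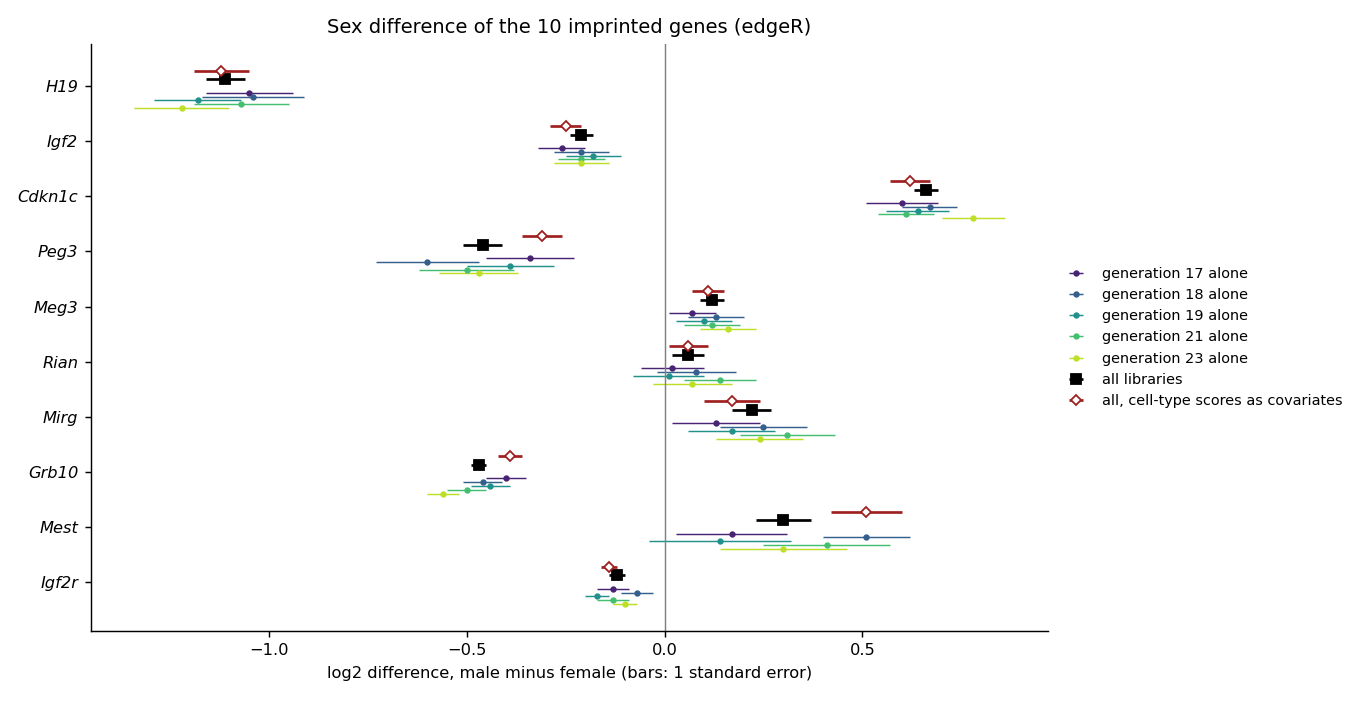
The plot gives the log2 sex difference (male minus female, edgeR) of each gene with bars of 1 standard error. Black squares stand for all libraries, open red diamonds for all libraries with cell type scores as covariates, and small points for each generation alone. H19 lies near -1.11 and Cdkn1c near 0.66 in every fit, and the open diamond of Mest stands to the right of its square.

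Generation made little difference to the members. Mest alone passed the test over generations with sex as a covariate (edgeR, adjusted p = 8.31e-05), 1 of 10 members, against 7.56% of all genes tested. Its medians were 2.37, 3.21, 2.87, 3.03 and 3.54 CPM in generations 17, 18, 19, 21 and 23, and against generation 17 the fitted log2 differences were 0.18, 0.41, 0.37 and 0.60. The group with the lowest median was the females of generation 17 (1.99 CPM, 1.34 to 9.97), and that with the highest was the males of generation 23 (4.38 CPM, 1.83 to 15.9). In females alone Mest did not pass, though its median was 1.99 CPM in generation 17 and 3.03 CPM in generation 23. In males these medians were 2.77 and 4.38 CPM. Adipocyte markers moved between generations as well: 4 of 6 passed (Plin4, Adipoq, Plin1 and Lep), but not in the same order. The medians of Plin4 were 548.7, 464.5, 491.6, 473.1 and 465.9 CPM in generations 17 to 23, highest where Mest was lowest. The other 5 adipocyte markers, summed in each library, had medians of 68.1, 66.9, 79.6, 82.4 and 95.0 CPM, highest in generation 23, where Mest was highest too. With cell type scores as covariates, Mest remained the only member that passed. The other 9 members had ranges of 0.05 to 0.23 on the log2 scale between generations, with adjusted p from 0.112 to 0.719.

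The sex difference itself was not found to vary between generations in any member. None of the 10 passed the interaction test by edgeR (adjusted p of 0.989 or higher), none had an unadjusted p under 0.05, and limma on the scores and DESeq2 passed none. Over all genes 0.531% passed by edgeR. The smallest unadjusted p of the members, 0.145, belonged to Grb10, whose log2 sex difference ran from -0.56 to -0.40 in the single generations.

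**Figure D3:**
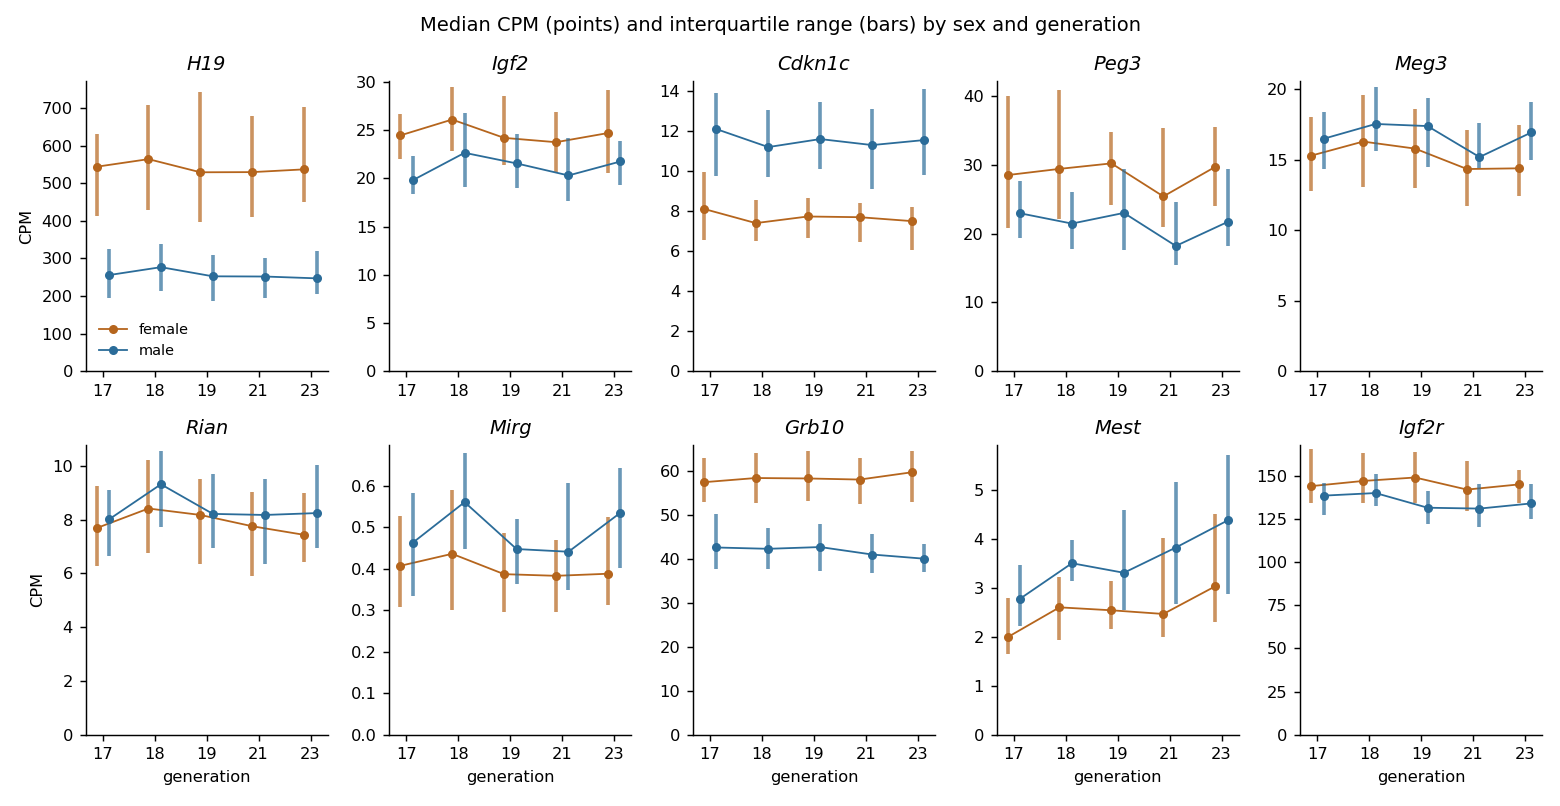
Points give the median CPM and bars the interquartile range of each gene by sex and generation, on linear axes from 0. The H19, Cdkn1c and Grb10 lines of both sexes run apart at every generation, and the Mest lines end higher in generation 23 than they begin in generation 17.

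Library numbers in the labels fall into 5 stretches, treated here as library blocks of 91 to 96 libraries. With sex and generation as covariates, 5 of 10 members differed between blocks, near the 47.4% of all genes tested that did. These were Cdkn1c (log2 range 0.29, adjusted p = 1.68e-06), whose medians went from 8.31 CPM in block 1 through 8.85, 9.12 and 9.69 to 10.2 CPM in block 5, Igf2 (0.16, 0.00202), Peg3 (0.33, 0.00252), Grb10 (0.11, 0.00835) and Rian (0.22, 0.0201). By limma on the scores Igf2 did not pass (adjusted p = 0.152), which left 4 members. What the blocks stand for is not given in the labels. The sex differences of H19, Igf2, Cdkn1c, Peg3, Mirg, Grb10 and Igf2r kept their sign in all 5 blocks, that of H19 between -1.28 and -0.97.

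The members also differed in how far single animals spread. Within the groups of sex and generation, the standard deviation of the score was 0.56 for H19, 0.50 for Peg3 and Mest, 0.37 for Rian, 0.31 for Cdkn1c and Meg3, 0.29 for Igf2, 0.22 for Grb10, 0.18 for Mirg and 0.17 for Igf2r. Among the 500 genes nearest in mean score to each, H19 was more variable than 97.6%, Peg3 than 94.8% and Mest than 92.8%, whereas Igf2r exceeded 37.8% and Mirg 16.0%. The score compresses low counts, and on the log2 CPM scale the standard deviations of Mest, Mirg and Rian were 0.70, 0.54 and 0.45. In H19 the animal at the 90th percentile of its sex had 2.74 times the level of that at the 10th in females and 2.5 times in males.

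Spread was compared between the sexes by limma on each animal's absolute deviation from its group median. Here 4 of 10 members passed, while 5.55% of all genes tested did, 1.75% with more spread in males and 3.80% with less. Cdkn1c (difference in mean absolute score deviation 0.08 ± 0.02, adjusted p = 0.00246) and Grb10 (0.04 ± 0.01, adjusted p = 0.0227) were more spread in males. Meg3 (-0.06 ± 0.02, adjusted p = 0.0116) and Igf2r (-0.03 ± 0.01, adjusted p = 0.0385) were less spread in males. With the block means removed first, Grb10 no longer passed (0.03, adjusted p = 0.0613).

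Correlation over animals was measured on the scores after the mean of each group of sex and generation had been taken away, for all 45 pairs of members. All 4 pairs within a locus passed (limma over all genes, adjusted p under 0.05 with each gene in turn as the covariate), with Pearson r from 0.21 to 0.77. Of the 41 pairs between loci, 10 passed, 8 positive and 2 negative, with r from -0.18 to 0.21 and a median size of 0.06. With cell type scores as covariates 7 passed, of which 6 were among the 10. The 4 lost were Mest with Meg3 and with Rian, H19 with Igf2r (adjusted p = 0.0698) and Cdkn1c with Meg3 (0.064), and H19 with Meg3 was gained (r = -0.14, adjusted p = 0.0355). The shares of all genes that pass against a single member give the scale: 29.9% for Rian, 13.6% for Meg3, 2.44% for Mirg, 14.5% for H19, 4.79% for Igf2, 30.7% for Cdkn1c, 20.6% for Grb10, 19.8% for Mest, 41.4% for Peg3 and 5.32% for Igf2r. Each share counts a single direction, whereas a pair had to pass in both, so the 10 of 41 pairs between loci met a stricter rule. The shares are also wide apart, from 2.44% to 41.4%, and no excess or lack of pairs was tested. The pairs within the Dlk1-Dio3 domain were larger in size.

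Meg3 and Rian rose and fell together. Their r was 0.77 (Spearman rho 0.73, permutation p = 1e-05, the smallest that 100000 permutations can give, adjusted p = 1.5e-87), and each was the closest of all 18822 other genes to the other. It was 0.76 without the 2 animals farthest from the median of Meg3, 0.80 in females, 0.73 in males and 0.61 to 0.85 in the library blocks. Meg3 and Mirg had r = 0.58 (rho 0.55, permutation p = 1e-05, adjusted p = 5.1e-39), and Meg3 was the closest of all genes to Mirg. Rian and Mirg had r = 0.51 (rho 0.49, permutation p = 1e-05, adjusted p = 2.61e-28), with rank 2 in either direction. Without the 2 animals farthest from the median of Meg3 and of Rian, in turn, these were 0.56 and 0.49. The ratio of Meg3 to Rian per kilobase had a median of 1.99 in females and 2.03 in males, and its log2 varied by 0.29 (SD within groups), less than log2 Meg3 (0.35) or log2 Rian (0.46) did by itself.

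H19 and Igf2, which share a control region but are transcribed from opposite parental copies, had a much weaker correlation. Their r was 0.21 (rho 0.19, permutation p = 2e-05, adjusted p = 0.00289), equal without the 2 animals farthest from the median of H19, 0.24 in females and 0.19 in males. It was not steady over the library blocks, where r ran from 0.00 to 0.39. For Igf2, H19 had rank 24 of all genes by size of r, but for H19, 2.25% of genes ranked as high as Igf2 or higher. The log2 ratio of H19 to Igf2 varied by 0.59 within groups, no less than log2 H19 did (0.56). The neighbouring Cdkn1c had r = 0.18 with Igf2 (rho 0.19, permutation p = 0.00018, adjusted p = 0.00947) and 0.07 with H19 (permutation p = 0.13, adjusted p = 0.345).

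**Figure D4:**
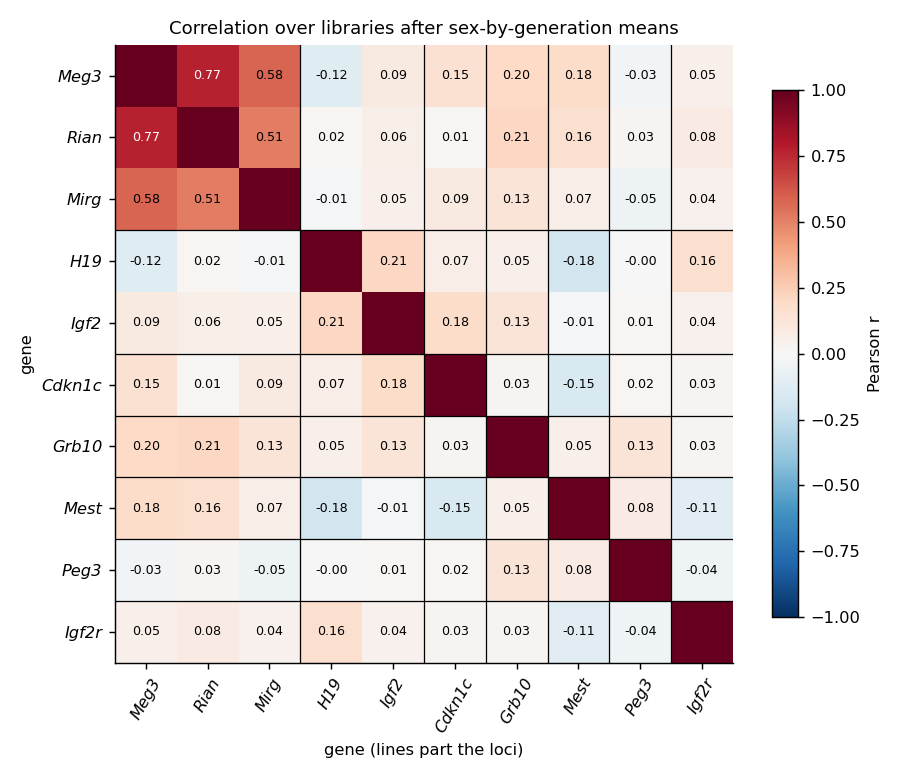
The matrix gives Pearson r over all libraries for each pair of genes after group means were removed, on a colour scale from -1 to 1, with lines between loci. The Meg3, Rian and Mirg block holds 0.51 to 0.77, and no pair between loci exceeds 0.21 in size.

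Between loci the 6 largest pairs, beside that of Igf2 with Cdkn1c, joined the Dlk1-Dio3 RNAs or H19 to Grb10 and Mest. Grb10 had r = 0.21 with Rian (rho 0.20, permutation p = 2e-05, adjusted p = 0.000312) and 0.20 with Meg3 (rho 0.20, permutation p = 3e-05, adjusted p = 0.000505), positive in all 5 blocks. Mest had r = 0.18 with Meg3 (rho 0.19, permutation p = 0.00017, adjusted p = 0.00272) and 0.16 with Rian (rho 0.20, permutation p = 0.00064, adjusted p = 0.00519). With cell type scores as covariates both Mest pairs missed the threshold (adjusted p = 0.0598 and 0.0527). H19 and Mest went in opposite directions (r = -0.18, rho -0.14, permutation p = 0.0002, adjusted p = 0.00255), also with the scores (r = -0.20). These 5 pairs and that of Igf2 with Cdkn1c were also measured without the 2 animals farthest from the median of Rian, Meg3, H19 or Igf2. Sizes of r were then from 0.15 to 0.21. Animals with extreme values of Grb10, Mest or Cdkn1c were not removed by this rule. The receptor and its ligand, Igf2r and Igf2, showed no detectable relation (r = 0.04, permutation p = 0.36, adjusted p = 0.673).

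The genes closest to each member over animals were named next, 3 per member, by size of r among all genes that are not members. Peg3 had the closest partners of the set. Its r was 0.70 with Acvr1c, a receptor of the activin family (adjusted p = 6.49e-65), 0.66 with Pck1, the enzyme that commits carbon to glucose and glycerol synthesis (adjusted p = 6.05e-55), and 0.64 with Zim1, its imprinted neighbour (adjusted p = 3.63e-51). Peg3 was also positively associated with 6 of 6 adipocyte markers (median r 0.54) and 6 of 6 macrophage markers (0.22), and negatively with 6 of 6 tendon markers (-0.23), 5 of 6 skeletal muscle markers (-0.16, with 1 positive), 4 of 5 pericyte and smooth muscle markers (-0.13) and 4 of 6 fast fibre markers (-0.13). With cell type scores as covariates, r fell to 0.46 for Acvr1c and 0.36 for Pck1 but was 0.57 for Zim1.

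Mest went with leptin, the hormone that fat cells release in proportion to their size. Its r with Lep was 0.63 (adjusted p = 5.27e-48), 0.58 in females and 0.67 in males, and 0.61 without the 2 farthest animals. The next partners were the non-coding 1700047G03Rik (0.60), at a median of only 0.0394 CPM, and Fads3, a desaturase-like gene of lipid metabolism (0.56). The library with the most Mest, 40.7 CPM, also had the most Lep (97.2 CPM) and the most Fads3 (23.3 CPM) of all libraries. Mest was positively associated with 4 of 6 adipocyte markers, a list that includes Lep (median r 0.32), with 4 of 7 fibro-adipogenic progenitor markers (0.20), 5 of 5 pericyte and smooth muscle markers (0.16) and 3 of 6 macrophage markers (0.11). Of the satellite cell and the endothelial markers 2 each were positive and of the tendon markers 1, while 2 skeletal muscle markers and 1 fast fibre marker were negative. With the scores as covariates, in which Lep itself takes part, the r with Lep was 0.56.

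Beside each other, the Dlk1-Dio3 RNAs had the following closest genes. The partners of Meg3 were Col6a1 (r = 0.42, adjusted p = 2.06e-17), Col6a6 (0.41) and Col6a2 (0.40), 3 chains of collagen VI. Those of Rian were Antxr2, a receptor that binds collagen (0.40, adjusted p = 1.75e-15), Ddr2, a collagen receptor kinase (0.37), and, in the opposite direction, Gtpbp1 (-0.36). Those of Mirg were Serpinh1, the collagen chaperone (0.30, adjusted p = 2.44e-07), Ret (0.29) and Col15a1 (0.28). Meg3 was positively associated with 6 of 6 tendon and 5 of 7 fibro-adipogenic progenitor markers, Rian with 4 and 6, and Mirg with 4 and 2. Meg3 was also positive with 4 of 6 fast fibre and 3 of 5 pericyte and smooth muscle markers, and Rian negative with 3 of 6 skeletal muscle markers. With the scores as covariates these r values were smaller in size, from 0.26 to 0.36 for Meg3, 0.27 to 0.31 for Rian and 0.20 to 0.25 for Mirg, while Meg3 with Rian was still at 0.76.

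**Figure D5:**
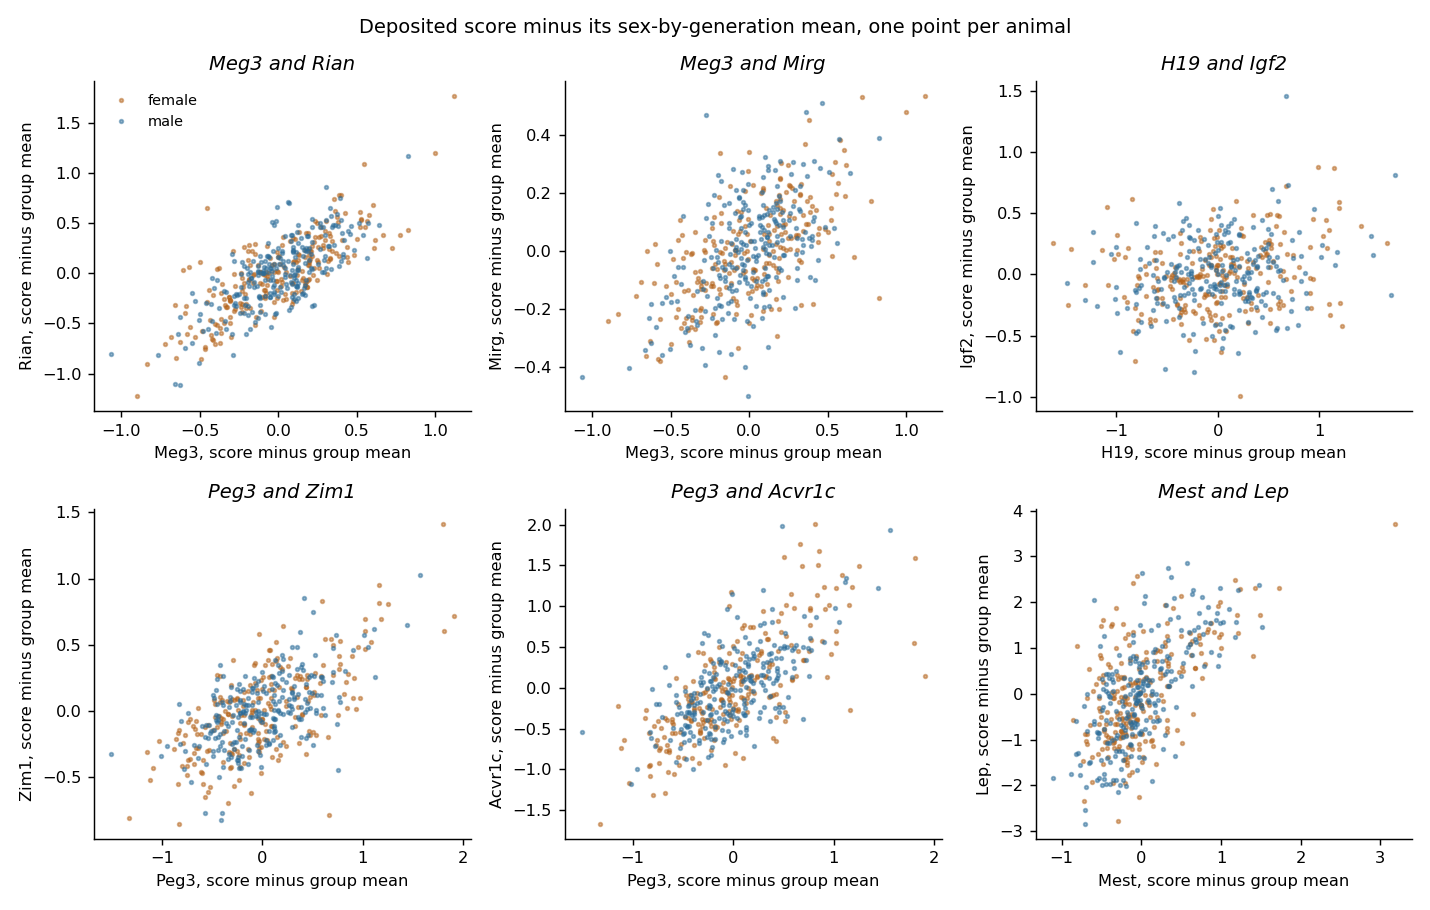
Each panel plots, for all animals, coloured by sex, the score of 1 gene against that of another after group means were removed. The Meg3 and Rian cloud is the narrowest (r = 0.77), that of H19 and Igf2 is nearly round (r = 0.21), and in the Mest and Lep panel 1 female lies far to the upper right.

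The remaining members had their largest r between 0.27 and 0.46 in size. H19 went with Oxct1, which lets muscle burn ketone bodies (r = 0.46, adjusted p = 1.13e-21), with Rcan2, an inhibitor of calcineurin (0.40), and against the cold-inducible Rbm3 (-0.43). It was positively associated with 5 of 6 macrophage and 3 of 4 erythroid markers and negatively with 4 of 6 fast fibre markers. Cdkn1c had its largest r with Maz (0.38, adjusted p = 3.2e-13), Ramp2 (0.37) and Tprgl (0.37), and was positively associated with 6 of 6 fast fibre markers (median 0.22) and 4 of 6 skeletal muscle markers, with the other 2 negative. Grb10 was positively associated with 6 of 6 slow fibre markers (median 0.14) and 4 of 7 of fibro-adipogenic progenitors (0.17), and its closest genes were Ubac2 (r = -0.36, adjusted p = 1.3e-11), Ntmt1 (-0.33) and Atxn1 (0.32). For Ubac2 the r was -0.11 in females and -0.49 in males, a difference that was not tested. Igf2 reached only 0.27, with Ifitm1, Appl2 and Dnm3 (adjusted p = 2.24e-05 for each), and Igf2r 0.34 with Gm14292, 0.32 with Myo18a and 0.31 with Ldb3 (adjusted p from 2.93e-10 to 3.33e-08). Igf2r was positively associated with 3 of 6 skeletal muscle markers.

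Within the imprinted domains, other genes were associated with the members to unequal degrees. The counts have to be read against the share of all genes that passed with each member. That share was 41.4% for Peg3, 13.6% for Meg3, 29.9% for Rian, 2.44% for Mirg and 14.5% for H19. It was 30.7% for Cdkn1c, 4.79% for Igf2, 20.6% for Grb10 and 5.32% for Igf2r. In the Peg3 domain both tested neighbours, Zim1 (r = 0.64) and Usp29 (0.34), were associated with Peg3. In the Dlk1-Dio3 domain the paternally expressed Dlk1, an inhibitor of fat cell formation, and Rtl1 were positively associated with Meg3 (0.29 and 0.23) and Rian (0.12 and 0.19), and Rtl1 with Mirg (0.24), but Dio3 and Begain with none of these, though Dio3 passed with Rian when the scores were covariates (-0.12, adjusted p = 0.0492). In the domains on distal chromosome 7, H19 was associated with 0 of 6 neighbours (limma, sizes of r up to 0.08), Cdkn1c with 1, Tssc4 (0.13, and with cell type scores as covariates 0.11 with adjusted p = 0.0706), and Igf2 with 3, Cd81 (-0.20), the non-coding Kcnq1ot1 (0.18) and Tssc4 (-0.16). Kcnq1ot1, the RNA whose transcription silences the paternal Cdkn1c, had r = 0.01 with Cdkn1c. Grb10 was associated with Ddc (0.20) and Igf2r with Slc22a3 (0.15), but the antisense RNA of the Igf2r domain, Airn, did not pass (0.12, adjusted p = 0.0909). Mest was associated with 6 of 7 tested genes of the imprinted domains on chromosome 6, most with Klf14 (0.37) and Copg2 (0.32), where 19.8% of all genes passed with Mest. Klf14, Dio3, Rtl1 and Begain had medians of only 0.0972, 0.106, 0.108 and 0.148 CPM, so their r values rest on few reads. With the scores as covariates 3 of the 7 passed, and Sgce (0.07, adjusted p = 0.335), Ppp1r9a (0.03, 0.753) and Nap1l5 (0.05, 0.496) no longer did. Copg2 shares exon bases with Mest on the opposite strand, and whether shared reads enter its value was not tested.

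As a last comparison, 49 other imprinted genes were set beside the members, out of 56 listed, and the other 7 were not analysed here. Between the sexes 32 of the 49 passed (65.3%, against 55.0% of all genes), 17 higher and 15 lower in males. The largest differences among them were those of Rasgrf1, a signalling exchange factor at a very low level (log2 -1.40, median 0.0574 CPM in females and 0.0146 in males, adjusted p = 4.54e-15), and Slc38a4, an amino acid transporter at a high one (0.59, 88.5 and 135 CPM, adjusted p = 4.47e-39). Next came Slc22a2 (-0.52), Dio3, which inactivates thyroid hormone (0.50), Th (-0.46), Ddc (-0.40), Nnat (0.37) and Usp29 (-0.35). With cell type scores as covariates Slc22a2 (0.25, edgeR adjusted p = 0.255) and Th (0.09, adjusted p = 0.792) no longer passed, and Nnat rose to 0.95. Th was at a very low level, with a median of 0.0262 CPM over all libraries. Over generations 5 of the 49 passed (10.2%, against 7.56% of all genes), of which Th had a log2 range of 0.85, Usp29 0.84, Nnat 0.56 and Ddc 0.43. The Usp29 values rest on 1 female of generation 21 with 47.6 CPM, where the next highest library had 6.83 CPM. Without it the sex difference of Usp29 was -0.11 (edgeR, adjusted p = 0.179) and its generation range 0.23 (adjusted p = 0.501), which left 31 of the 49 passing by sex and 4 by generation, while r of Peg3 with Usp29 was 0.36.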

How the data were processed

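The study's methods describe polyadenylated RNA sequenced as read pairs, of which the authors joined the mates, aligned each as a single read to the transcriptomes of 8 founders and estimated counts per gene with EMASE within GBRS. The deposited expected counts are therefore unnormalised estimated counts of read ends, and 68.6% of them were whole to the sixth decimal. A second deposited value, called the score here, is the authors' variance-stabilised transform from DESeq2, close to log2. Versions of EMASE, GBRS and DESeq2, the use of strand in counting and each animal's wave, a covariate of the study, were not given in the sources used here. Columns were matched to samples by animal number, and 2 pairs of columns stand in exchanged order in both tables.

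Expected counts were rounded and scaled by TMM (factors 0.871 to 1.29). A minimum count of 10 by filterByExpr kept 18823 genes and removed 1789. Differences by sex, generation, their interaction and library block were tested with the quasi-likelihood F-test of edgeR 4.0.16 in R 4.3.3, with the other label terms as covariates, with a threshold of 0.05 on p-values corrected over all genes tested (Benjamini-Hochberg). CPM is counts-per-million of the TMM-scaled total, and levels per kilobase use all annotated exon bases. Spread between the sexes and association of all genes with each member were tested on the scores with limma 3.58.1, and pairs of members by permuting animals within groups 100000 times, 2-sided. Alternatives included DESeq2 1.42.0, and files were read with version 1.17.8 of data.table. Summaries used pandas 2.3.3, SciPy 1.17.1 and NumPy 2.4.6, and figures matplotlib 3.10.9, all in Python 3.11.15. The edgeR and limma steps were tested on simulated data. The members, the marker and gene lists and the tests were chosen with earlier results of these data known. Always named were the members, all pairs within a locus, the 6 largest pairs between loci, 3 partner genes per member, and of other imprinted genes those that passed with the largest sex (up to 8) and generation (up to 4) differences. Usp29, the libraries with the most Mest or Usp29 and the adipocyte sum without Plin4 were looked at after the values were seen.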

Additional observations from a re-analysis of the deposited data

Results flagged for a closer look

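The sex difference of Usp29, a paternally expressed neighbour of Peg3, varied between generations (edgeR interaction test, log2 range 1.77, adjusted p = 1.66e-07). It was -1.65 ± 0.32 (SE) in generation 21 and lay between -0.31 and 0.14 in the others. The medians of generation 21 were 0.656 CPM in females and 0.51 CPM in males, close to those of other generations, and 1 female of generation 21 had 47.6 CPM. In that library Peg3 stood at 53.2 CPM, rank 22 from the highest, and Zim1 at 9.14 CPM, rank 26. Without it the range was 0.50 (adjusted p = 0.924), and by limma on the scores with all libraries it was 0.21 (adjusted p = 0.999). The interaction of Usp29 therefore rests on 1 animal.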

How the results depend on the processing

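No paired analysis was possible because every animal number occurs once and no label links animals of different groups. Across scaling, filters, covariates, DESeq2, limma on the scores and libraries left out, 8 or 9 members differed by sex (Mirg was removed by the stricter filter of at least 1 CPM, which tested 9), and within single generations or blocks 6 or 7 did. Of the sex differences of single members, 109 of 109 kept direction and side of the threshold under the former settings, and within single generations or blocks 71 did, 26 missed the threshold and 3 changed sign. Meg3 turned to -0.07 and Rian, which passed nowhere, to -0.19 in block 5, Mest to -0.02 in block 4 and r of H19 with Igf2 to 0 in block 3. Members that differed by generation numbered 0 in each block alone and 0 in females alone, in place of 1. Pairs of members with a permutation p under 0.05 numbered 18, but 5, 11 and 6 in blocks 2, 3 and 4 alone. The median number of genes associated with a member was 3226 in all libraries, 1717.5 in females and 897 in males. With cell type scores as covariates associated genes went from 2554 to 1337 for Meg3, 460 to 85 for Mirg and 3881 to 2362 for Grb10. By mean transcript length, median CPM per kb was 290.7 for H19, 42 for Igf2r, 24.9 for Grb10, 11.5 for Igf2, 8.22 for Cdkn1c, 6.06 for Meg3, 5.62 for Peg3, 5.53 for Rian, 2.76 for Mest and 0.27 for Mirg. On the log2 CPM scale the standard deviation was 0.45 for Rian, 0.54 for Mirg and 0.70 for Mest, and the sex difference in spread, which did not pass, turned to -0.01 for Mirg and -0.02 for Mest. Over all genes, the share that differed by generation was 7.56%, and 0.287% to 0.935% in blocks, 2.87% in females and 2.76% in males. The share with an interaction was 0.531%, but 0.275% under the stricter filter, 0.266% with cell type scores and 0 by limma, and the share that differed in spread was 5.55%, or 3.66% on log2 CPM. Those that differed by sex numbered 10362, and 3708 to 5381 in single generations or blocks. Igf2 differed between blocks by edgeR but not by limma (adjusted p = 0.152). The cause of these changes was not tested. Single blocks, generations and sexes also hold fewer animals, and the effect of that was not tested either. Depth limits Mirg most, at a median of 35 counts.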
